A study of Homo sapiens with 4 samples.

Results

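The comparison set 2 arrays, those labelled VPA and GEM, against the other 2 arrays, those labelled untreated and GEM_VPA, so that all 4 of the 4 arrays of the series were used. HuCCT1 is a human cholangiocarcinoma line, that is, cancer cells from the bile duct epithelium. Each condition, untreated cells, cells given VPA alone, cells given GEM alone and cells given both agents, was hybridised to 1 whole-transcript array. VPA usually stands for valproic acid, an inhibitor of histone deacetylases (HDACs), and GEM for gemcitabine, a cytidine analogue that is built into DNA and also inhibits ribonucleotide reductase. The labels do not spell these abbreviations out, and no dose, exposure time or scan date is given in the sources used here. All 4 arrays hold RNA of the same cell line, and whether the conditions were cultured in parallel is not stated. Every direction follows the labels as given, and no measurement used here checks which array received which agent.

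The sides were not set by the study. They were chosen by the measured correlations between the arrays, in which each single drug array was closest to the other and the array of the combination was closest to the untreated one. Every difference between the sides therefore describes values that also made the grouping, and is given as a size without a test. No condition had a replicate, and precision is limited by there being 4 arrays in all. Over all 28869 rows the closest pairs correlated at 0.9962 and 0.9955, and the other pairs between 0.984 and 0.987. The array medians lay between 7.87 and 7.92 on the log2 scale. The interquartile range moved with the sides, at 3.30 and 3.28 on untreated and GEM_VPA and at 3.20 and 3.19 on VPA and GEM. The part of that spread in the differences was not tested.

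The defining markers of biliary epithelium were present. All 7 measured markers were above the median of all rows, with a median log2 level of 12.83, 12.68, 12.63 and 12.84 on untreated, VPA, GEM and GEM_VPA. Their summed linear level was 61517 and 61970 on VPA and GEM against 45621 and 44896 on untreated and GEM_VPA. Endothelial markers were at that level for 0 of 5 genes, fibroblast markers for 1 of 6 and hepatocyte markers for 1 of 5. Of 6 leukocyte markers, PTPRC, the common leukocyte antigen, lay below the 25th percentile of rows on all arrays. LYZ and CD68 were at level and both were higher on the single drug arrays, by 1.09 and 1.11 on the log2 scale. The summed linear level of the leukocyte list was 2729 and 2826 on VPA and GEM against 1668 and 1336 on untreated and GEM_VPA.

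As background, dividing cells switch on genes in waves. The E2F transcription factors drive the genes that license and copy DNA in late G1 and S phase. Histone genes are read in step with DNA synthesis. The DREAM and MuvB complexes hold the mitotic genes, through the cell cycle homology region (CHR), until G2. When DNA is damaged or copying stalls, p53 raises the CDK inhibitor p21 (CDKN1A), which keeps the RB-family proteins active and both sets of genes low. HDAC inhibitors raise CDKN1A as well, through acetylated chromatin at its promoter.

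A gene was called when the mean of VPA and GEM differed from the mean of untreated and GEM_VPA by at least 1 on the log2 scale, that is 2-fold, and the higher of the means was at or above the median of all rows. Of 11580 genes at that level, 166 were higher on the single drug arrays (1.43%) and 238 lower (2.06%), together 404 genes (3.49%). These shares are the reference for the counts of every gene list below. The stricter requirement that each single drug array be at least 2-fold from each of the other arrays, in all 4 array pairs, was met by 74 higher genes (0.639%) and 101 lower genes (0.872%). The sides of all 404 called genes did not overlap. The call does not require that, but a 2-fold difference of the means favours it, and nothing is read from it. Sides without overlap were found for 31.0% of genes in the higher and 39.6% in the lower direction. The difference was below 0 for 54.7% of genes, with a median of -0.04 and quartiles of -0.30 and 0.17. Of 2750 rows at level without exactly 1 gene symbol, which are not named here, 99 passed the same limit (3.6%). The count of lower genes was 365 when the VPA array was left out and the GEM array stood alone for its side.

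Most of the variation between the arrays lay along this axis. It held 81.1% of the summed variation over genes at level, against 14.5% for the average change with VPA and 4.44% for the average change with GEM. It was the largest of the 3 parts for 8174 genes (70.6%). Within the sides, 33 genes differed 2-fold between VPA and GEM (0.285%) and 16 between GEM_VPA and untreated (0.138%). The differences across the sides can also be formed from arrays that are not shared. GEM minus untreated and VPA minus GEM_VPA correlated at 0.90 over the 11580 genes, and VPA minus untreated and GEM minus GEM_VPA at 0.69. These correlations are across genes, which are not independent replicates, and follow from the grouping of the arrays. That this axis held the largest part, and that few genes differed within the sides, also follows from that grouping. Nothing further is read from these shares and counts.

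**Figure D1:**
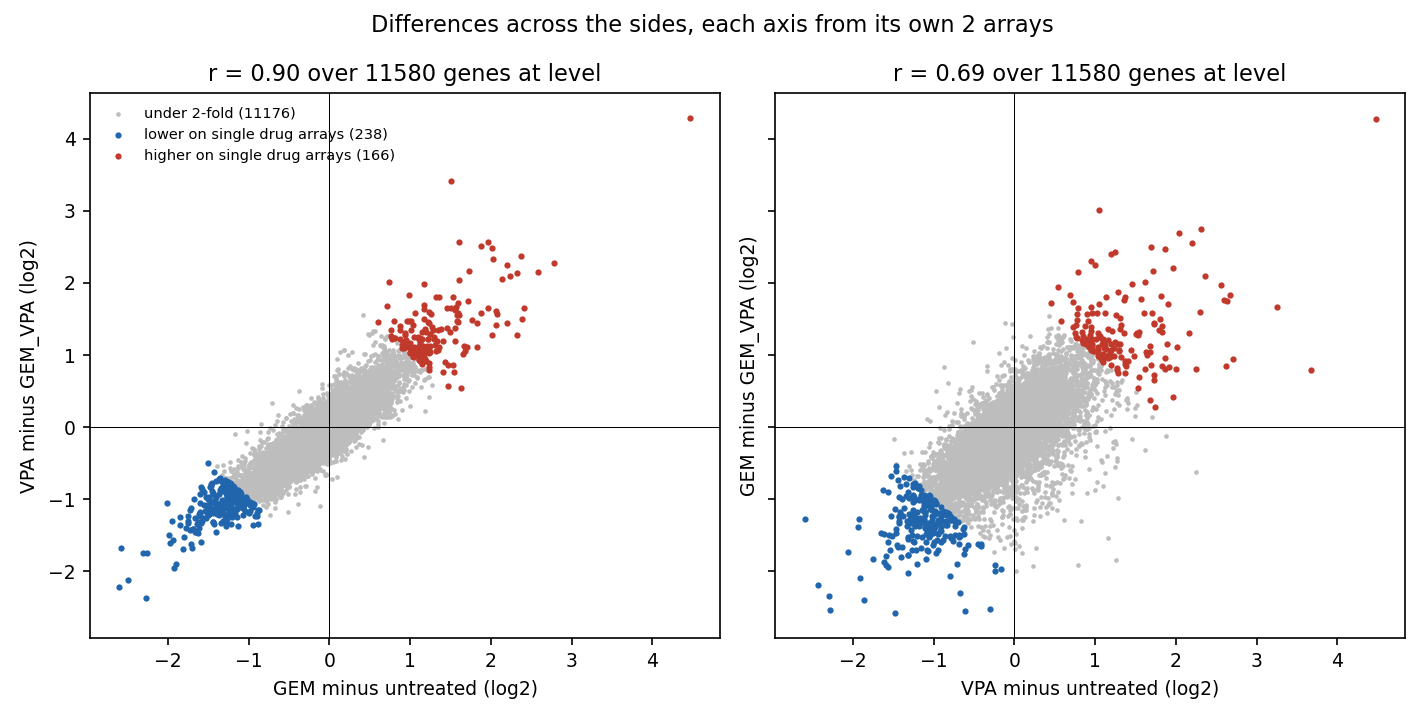
Each point is 1 of 11580 genes at level, and each axis is a log2 difference between 2 arrays that the other axis of the panel does not use (left, GEM minus untreated against VPA minus GEM_VPA; right, VPA minus untreated against GEM minus GEM_VPA). The 166 genes called higher lie at the upper right and the 238 called lower at the lower left, with r of 0.90 and 0.69, and KRTAP3-1 stands alone above 4 on every axis.

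The genes that copy DNA were lower on both single drug arrays. Of 39 measured genes of the replication origin and fork, 22 were called lower and 0 higher, 16 of them in all 4 array pairs, and the median difference was -1.05 against -0.04 over all genes at level. All 39 were below 0, between -1.67 and -0.31. In RNA of a whole culture, fewer cells in S phase and less of a transcript per cell cannot be told apart. POLA1, the catalytic subunit of the polymerase that starts each new strand, was at 9.84 on untreated, 8.52 on VPA, 8.12 on GEM and 10.14 on GEM_VPA. Its single drug values lay at least 1.32 below the others, and the difference of the means was -1.67 (3.19-fold). POLE2, a subunit of polymerase epsilon, was at 11.16, 9.75, 9.31 and 11.11 in the same order of arrays. ORC1, the largest subunit of the origin recognition complex, was at 10.21, 8.65, 8.49 and 10.08. MCM6, of the replicative helicase, was at 11.37, 10.05, 9.52 and 11.30. In these genes GEM was the lowest array and VPA the next, and the remaining arrays lay close together above them. The differences were -1.60, -1.58 and -1.54.

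E2F sites in such promoters were looked for with the letters TTTCGCGC and TTTGGCGC on both strands, in windows of 250 bases before to 50 bases after the annotated start (RefSeq, GRCh38.p14). Of the 11580 genes at level 9320 matched a window by symbol, and the 6701 with exactly 1 window were used. Either form was found in 9 of 26 replication genes (34.6%), in 15 of 149 genes called lower (10.1%), in 0 of 85 called higher and in 144 of all 6701 (2.15%). The 250 bases before the start of MCM6 (chr2:135876444-135876693, minus strand) and of POLA1 (chrX:24693668-24693917, plus strand) are shown because both genes were called lower in all 4 pairs and both hold the letters, in capitals below. In MCM6 each capital run is a pair of overlapping matches, 1 of each form on opposite strands, from -152 to -141 and from -90 to -79 relative to the start. The run in POLA1 is a single match on the opposite strand, from -137 to -130. A match describes the sequence and is not a site shown to be bound.
MCM6: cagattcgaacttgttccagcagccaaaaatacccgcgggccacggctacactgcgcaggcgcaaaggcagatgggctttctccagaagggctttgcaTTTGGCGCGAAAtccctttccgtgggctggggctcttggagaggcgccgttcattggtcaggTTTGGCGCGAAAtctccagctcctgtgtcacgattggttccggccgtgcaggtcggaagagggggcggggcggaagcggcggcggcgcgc
POLA1: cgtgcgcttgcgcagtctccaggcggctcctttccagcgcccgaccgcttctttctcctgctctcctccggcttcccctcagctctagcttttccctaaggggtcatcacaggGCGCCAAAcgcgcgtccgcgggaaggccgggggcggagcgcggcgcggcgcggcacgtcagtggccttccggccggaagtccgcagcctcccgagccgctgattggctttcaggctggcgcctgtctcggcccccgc

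Damage checkpoint, Fanconi and repair genes were lower as well. Of 30 measured genes, 11 were called lower and 0 higher, 7 in all 4 pairs, with a median difference of -0.90 and 28 below 0. MSH6, which recognises mismatched bases, was at 9.94 on untreated, 8.66 on VPA, 8.44 on GEM and 9.87 on GEM_VPA, a difference of -1.35. FANCI, of the complex that marks crosslinked DNA, was at 11.22, 10.21, 9.67 and 11.30, a difference of -1.32. XRCC2, a gene of homologous recombination, and CLSPN, claspin, which passes the stalled fork signal to CHEK1, differed by -1.30 and -1.27. In these 4 genes the single drug values lay below both other arrays by at least 1.01. PARPBP, which restrains homologous recombination, was outside that list and lower still, at 9.55, 7.96, 7.61 and 9.53 (difference -1.75).

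The histone genes read in S phase held several of the largest decreases. Of 40 measured replication-dependent histone genes 26 were at level, 16 were called lower and 0 higher, 13 of them in all 4 pairs. The median difference was -0.74 over all 40 and -1.22 over those at level, and 38 were below 0. H3C12, which encodes histone H3, was at 11.39 on untreated, 9.10 on VPA, 8.78 on GEM and 11.32 on GEM_VPA, a 5.32-fold difference (-2.41). H2AC4, a histone H2A gene, was at 10.95, 8.51, 8.45 and 10.63 (-2.31), and H2BC14, a histone H2B gene, at 13.75, 11.89, 11.17 and 13.56 (-2.13). The histone H4 gene H4C2 was at 11.54, 9.63, 9.29 and 11.37 (-2.00). In each of them the values on VPA and GEM lay at least 1.68 below both others.

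The genes H3C1 (-1.89), H2AC15 (-1.74), H4C4 (-1.69) and H2AC13 (-1.66) were also among the 15 largest decreases. H2AC14, at -1.94, lay below the 25th percentile of rows on VPA and GEM, where values are compressed, so that its size may be understated. Copies of histone genes are nearly identical and may be read by common probes, so the value of a single histone gene is uncertain. Of 14 histone genes with polyadenylated transcripts or read outside S phase, 11 were below 0 and the median was -0.56. Of these, H1-2, a linker histone, was called lower (-1.54) and H2BC12 higher, at 11.52, 12.31, 13.08 and 10.93 on untreated, VPA, GEM and GEM_VPA (1.47).

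Histone promoters carry their own elements, and the pair with values above is shown for them. Both windows lie on chromosome 6, H2BC14 at chr6:27814772-27815021 (plus strand) and H2AC4 at chr6:26033619-26033868 (minus strand), in the same build. Capitals mark matches to the octamer ATTTGCAT, the TATA box letters TATAAA and the CCAAT box, on either strand, and other searched letters are left in lower case. The TATAAA match lies from -30 to -25 in H2AC4. In H2BC14 it lies on the opposite strand and far from the start, from -219 to -214. Among 21 histone genes with a single window the octamer was found in 9 (42.9%), the TATA box in 16 (76.2%), the CCAAT box in 18 (85.7%) and an E2F form in 8 (38.1%). Over all 6701 windows these shares were 1.33%, 5.42%, 37.3% and 2.15%. The histone windows were also poorer in G and C, with a median of 42.3% against 66.3% over all, which bears on how often such letters occur.
H2BC14: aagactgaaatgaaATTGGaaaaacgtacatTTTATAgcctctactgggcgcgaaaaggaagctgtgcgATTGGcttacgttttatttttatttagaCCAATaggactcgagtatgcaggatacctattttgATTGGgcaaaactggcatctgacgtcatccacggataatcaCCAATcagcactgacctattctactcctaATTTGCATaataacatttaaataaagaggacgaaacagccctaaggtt
H2AC4: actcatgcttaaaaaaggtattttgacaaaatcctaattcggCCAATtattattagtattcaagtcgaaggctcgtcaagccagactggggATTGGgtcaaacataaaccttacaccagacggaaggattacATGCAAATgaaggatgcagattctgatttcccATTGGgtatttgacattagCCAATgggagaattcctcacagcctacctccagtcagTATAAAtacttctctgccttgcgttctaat

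The mitotic genes followed. Of 51 measured kinases, cyclins and spindle genes, 23 were called lower and 0 higher, 13 in all 4 pairs. All 51 were below 0, between -1.55 and -0.40, with a median of -0.94. KIF15, a spindle motor, was at 9.47 on untreated, 8.02 on VPA, 7.82 on GEM and 9.48 on GEM_VPA. PLK4, the kinase that starts centriole duplication, was at 11.24, 9.62, 9.54 and 11.03, and SMC4, a condensin subunit, at 11.55, 10.23, 9.87 and 11.64. The sides of these 3 genes were at least 1.32 apart in every pair of arrays, and each differed by -1.55. PBK, a mitotic kinase, was at -1.46. KIF11, the motor that pushes spindle poles apart, was at 10.84, 9.63, 9.29 and 10.80 and is named after its values were seen, for the sequence that follows.

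The cell cycle homology region was searched as TTTGAA on both strands. It was in 23 of 35 mitotic genes with a single window (65.7%), in 0 of 26 replication genes, in 46 of 149 genes called lower (30.9%), in 10 of 85 called higher (11.8%) and in 602 of 6701 overall (8.98%). The CCAAT box was in 25 of the 35 (71.4%) and in 37.3% overall. The windows of KIF11 (chr10:92592880-92593129, plus strand) and KIF15 (chr3:44761544-44761793, plus strand) are shown because the match lies close to the start in both, from -28 to -23 and from -35 to -30. Capitals mark the homology region, read on the opposite strand as TTCAAA, and in KIF11 a CCAAT box, also on the opposite strand, from -53 to -49. Other searched letters are left in lower case, among them in KIF15 an E2F form, TTTGGCGC on the opposite strand, directly before the homology region.
KIF11: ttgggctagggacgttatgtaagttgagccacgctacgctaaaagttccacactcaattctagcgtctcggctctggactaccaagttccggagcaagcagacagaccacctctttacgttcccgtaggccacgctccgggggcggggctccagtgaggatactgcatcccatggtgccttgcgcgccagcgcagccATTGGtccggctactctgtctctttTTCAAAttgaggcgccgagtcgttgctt
KIF15: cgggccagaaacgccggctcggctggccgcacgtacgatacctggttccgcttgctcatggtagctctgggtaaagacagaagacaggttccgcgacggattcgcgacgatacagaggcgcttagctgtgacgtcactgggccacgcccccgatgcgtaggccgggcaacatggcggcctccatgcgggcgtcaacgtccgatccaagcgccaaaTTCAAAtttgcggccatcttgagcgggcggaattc

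The plot of motif shares sets these counts side by side. Among the genes called higher, the AP-1 site TGACTCA was in 9 of 85 windows (10.6%) against 2.79% of all. The E-box CACGTG was in 1.18% of them against 10.7%. The TATA box had a higher share in both called sets, at 15.3% in the higher and 12.1% in the lower windows against 5.42% of all. The GC box GGGCGG was the most frequent of the searched motifs in these 3 sets, in 74.4% of all windows, 70.5% of the lower and 63.5% of the higher. Median GC content was 60.3% in the higher and 62.3% in the lower windows.

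**Figure D2:**
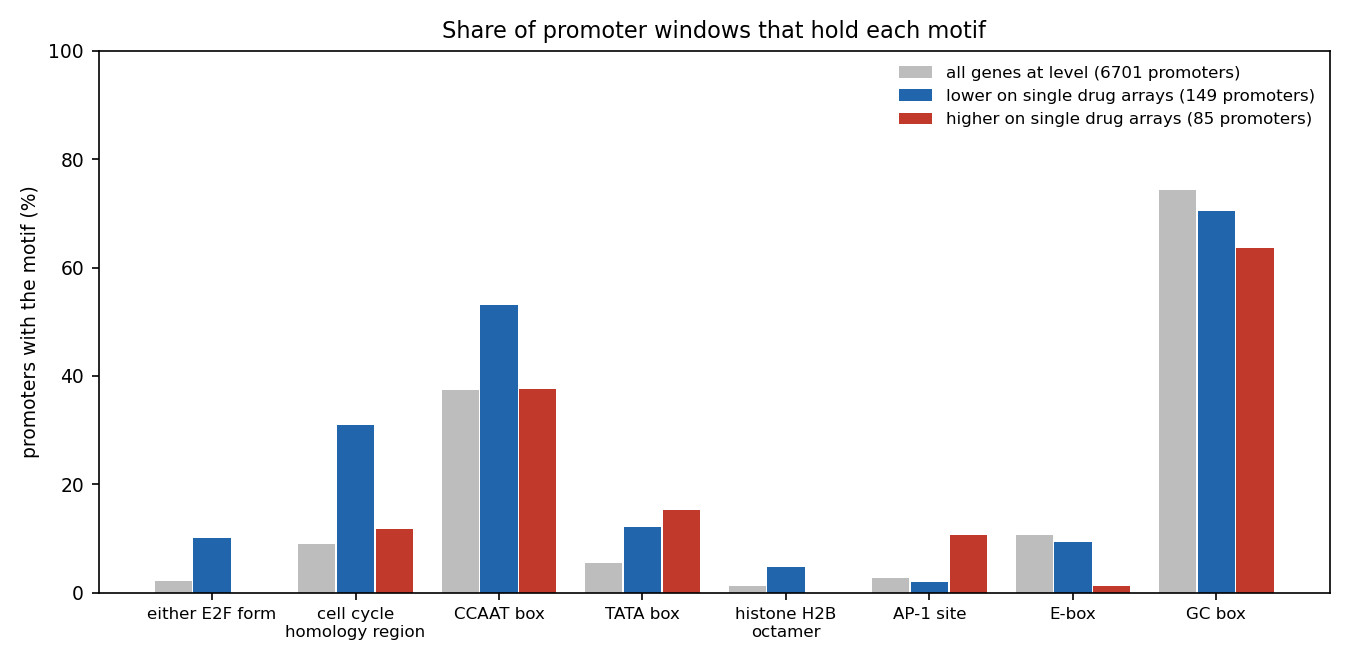
Bars give the percent of promoter windows that hold each motif, for all 6701 genes at level with a single window (grey), 149 genes lower on the single drug arrays (blue) and 85 higher (red). The E2F forms and the cell cycle homology region have a higher share in the lower set, at 10.1% and 30.9% against 2.15% and 8.98%, and the AP-1 site in the higher set, at 10.6% against 2.79%.

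In further lists, parts of the nucleus and of RNA handling were lower. Of 36 measured genes of the lamina, envelope and nuclear pore, 7 were called lower, 3 in all 4 pairs, with a median of -0.66. LMNB1, lamin B1 of the nuclear lamina, was at 10.48 on untreated, 8.72 on VPA, 8.51 on GEM and 10.33 on GEM_VPA (-1.79). TMPO, a lamina-associated protein of the inner nuclear membrane, was at 12.15, 10.60, 10.41 and 11.91 (-1.53), and THOC6, of the mRNA export machinery, at 11.87, 9.95, 10.28 and 11.56 (-1.60). The nuclear pore gene NUP35 was at -1.10. In these genes the single drug values lay below both others by at least 0.97.

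All 37 measured splicing factors and hnRNPs were below 0 (median -0.54), of which 3 were called, SNRPD1, a core snRNP protein (-1.19), SRSF4, an SR protein (-1.07), and HNRNPR (-1.02). Over all genes at level 2.06% were called lower. Among chromatin enzymes and deacetylases 1 of 28 was called, HELLS, a remodeller of replicating chromatin (-1.39), near the 3.49% of all genes at level. The list's median was -0.09 (-0.59 with the level at the 75th percentile of rows). The proteasome (0 of 28 called, median -0.36), cytosolic ribosomal proteins (0 of 55, median -0.16), the respiratory chain (0 of 37, median -0.11) and commonly used reference genes (0 of 13, median -0.04) held no called gene. Over all genes at level 3.49% were called, and nothing is read from these counts.

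Supply genes were mixed. Of 38 ATF4 targets and amino acid genes 3 were lower, all in all 4 pairs, and the median was -0.26. SLC7A11, the cystine transporter that feeds glutathione synthesis, was at 10.93 on untreated, 8.64 on VPA, 8.66 on GEM and 11.01 on GEM_VPA, a 4.99-fold difference (-2.32). SLC7A2, a transporter of arginine and lysine, was at 9.61, 8.05, 7.80 and 9.74 (-1.75), and ASNS, asparagine synthetase, at 10.48, 9.23, 9.14 and 10.30 (-1.21). Both single drug arrays lay well below both others in each. SLC7A11 is also an NRF2 target. That list of 25 genes had a median of -0.09. Its other called genes were ABCC3, an organic anion exporter (1.24), and AKR1B10, an aldo-keto reductase (1.17), both higher. In cholesterol and fatty acid synthesis INSIG1, which restrains sterol synthesis, was lower (-1.62) and TM7SF2, a sterol reductase, higher (1.15), with a median of -0.14 over 28 genes. Of 30 heat shock and chaperonin genes 1 was called, HSPE1, the mitochondrial co-chaperonin, which was lower (-1.03). That is near the 3.49% called over all genes at level.

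Genes that handle nucleotides and gemcitabine held 3 lower and 1 higher call among 30, with a median of -0.37. Over all genes at level 2.06% were called lower and 1.43% higher. CDA, cytidine deaminase, which inactivates gemcitabine, was at 10.81 on untreated, 12.17 on VPA, 12.09 on GEM and 10.79 on GEM_VPA, higher on both single drug arrays by 1.33 (2.52-fold). DUT, which removes dUTP, and TYMS, thymidylate synthase, were at -1.35 and -1.08. NT5C3A, a pyrimidine nucleotidase, just reached the limit. DCK, the kinase that activates gemcitabine, did not reach the limit, at 10.67, 10.01, 9.60 and 10.51 (-0.78). The ribonucleotide reductase subunits RRM1 and RRM2 (-0.60 and -0.51) and the nucleoside transporter SLC29A1 (-0.34) also stayed under it.

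The measured p53 targets all had the higher mean on the single drug side. Of 32 measured genes 6 were called higher and 0 lower, 5 in all 4 pairs, all 32 were above 0, and the median was 0.63. With the level at the 75th percentile of rows it was 0.65, below the interferon-stimulated (0.79) and the mucin, kallikrein and defence list (0.74). TP53INP1, a p53-induced nuclear protein, was at 9.28 on untreated, 11.48 on VPA, 11.66 on GEM and 9.10 on GEM_VPA (2.38, or 5.20-fold). CDKN1A, the CDK inhibitor p21, was at 11.17, 12.63, 13.04 and 11.05 (1.73). GDF15, a secreted stress cytokine, was at 12.10, 13.38, 13.60 and 11.73 (1.58). GEM was the highest array in each of these genes and VPA the next. TP53I3, an oxidoreductase, was at 9.54, 10.50, 11.36 and 9.05 (1.63), with VPA 0.96 above untreated.

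CDKN1A also belongs to the lists of G1 control and of HDAC inhibitor response. In G1 control, MXD1, which opposes MYC by pairing with MAX, was higher (1.27) and RBL1, the pocket protein p107, lower (-1.46), with a median of -0.15 over 36 genes. Of 21 HDAC inhibitor response genes 3 were higher, against 1.43% of all genes at level. They were CDKN1A, ABCC3 and GLRX, glutaredoxin (1.06), and the list's median was 0.28. That median was 0.06 when the VPA array was left out and 0.11 when the untreated array was, and GLRX was not called in the latter case (0.99). CCND1, cyclin D1, was at 0.19. Of 34 apoptosis genes 0 were called (median 0.10), against 3.49% of all genes at level, and nothing is read from that count.

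Of 39 interferon-stimulated genes (median 0.38) 3 were called higher, against 1.43% of all genes at level. These 3 were 2-fold apart in all 4 pairs. IFI6, an interferon-induced membrane protein, was at 10.31 on untreated, 12.99 on VPA, 12.33 on GEM and 10.50 on GEM_VPA (2.25). SAMD9, an antiviral effector, was at 8.36, 10.25, 9.95 and 8.80 (1.52), and RIGI, the sensor of viral RNA, at 8.72, 9.80, 9.83 and 8.68 (1.12). Each was higher on VPA and GEM than on both others. Of 39 NF-kB targets, chemokines and interleukins only IL1RN, the interleukin-1 receptor antagonist, was called (1.12), against 3.49% of all genes at level.

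The largest single difference was in a hair gene. KRTAP3-1, a keratin-associated protein of the hair fibre, was at 9.12 on untreated, 13.60 on VPA, 13.59 on GEM and 9.32 on GEM_VPA, a difference of 4.38 or 20.8-fold. Both of its rows gave a difference of 4.38, VPA and GEM were 0.01 apart, and the smallest difference across the sides was 4.27. Most of the family differed far less. Of 67 measured keratin-associated protein genes, 26 were at level, only KRTAP3-1 and KRTAP4-4 (1.11) were called, and the median was 0.14. This family was looked at after its values were seen. The 250 bases before the KRTAP3-1 start (chr17:41009129-41009378, minus strand) are shown because no other gene differed as much. Capitals mark a TATAAA match from -89 to -84, far from the start, and other searched letters are left in lower case. The letters TATATAAG, nearer the start, are not an exact match and were not marked.
KRTAP3-1: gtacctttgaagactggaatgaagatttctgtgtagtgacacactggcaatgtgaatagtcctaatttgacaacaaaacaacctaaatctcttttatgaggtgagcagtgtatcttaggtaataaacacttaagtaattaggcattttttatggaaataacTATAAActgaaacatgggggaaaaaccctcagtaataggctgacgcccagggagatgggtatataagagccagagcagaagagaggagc

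A few keratin and adhesion genes were higher on the single drug arrays, while most did not reach the limit. Of 34 such genes 4 were called higher and 0 lower (median 0.28). CEACAM1, an adhesion receptor, was at 7.86 on untreated, 9.90 on VPA, 10.45 on GEM and 7.75 on GEM_VPA (2.37). KRT7, a keratin of simple and biliary epithelium, was at 9.53, 11.50, 11.14 and 8.93 (2.09), and KRT20, of gut and bladder lining, at 7.41, 8.67, 8.39 and 6.84 (1.41). KRT80, another keratin, was at 1.02, while CDH1, E-cadherin (0.82), and EPCAM, an epithelial adhesion protein (-0.18), were under the limit. FXYD3, a regulator of the sodium pump, was at 9.56, 11.42, 11.79 and 9.32 (2.17).

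Among 41 mucin, kallikrein and epithelial defence genes, of which 14 were at level, 4 were higher. The median was 0.21 over all 41, 0.63 over those at level and 0.74 with the level set at the 75th percentile of rows. LCN2, which binds bacterial siderophores, was at 8.81, 9.86, 11.22 and 8.21 on untreated, VPA, GEM and GEM_VPA (2.03, or 1.35 without the GEM array). KLK5, a serine protease of skin, was at 9.28, 10.53, 11.34 and 8.91 (1.84), and SLPI, an antiprotease, at 7.52, 9.53, 8.84 and 7.72 (1.56). LYZ, lysozyme, the fourth, was at 7.41, 7.86, 8.40 and 6.69 (1.09). It was not called without the GEM array (0.81) or without the GEM_VPA array (0.73). LYZ is also a leukocyte marker. In that list CD68 was called higher too (1.11), the summed level given above moved with the sides and PTPRC stayed below the 25th percentile on all arrays, and the part of this in the result was not tested. TCN1, a carrier of vitamin B12 (2.19), PTAFR, the receptor of platelet-activating factor (2.10), and APOD, a lipid-binding lipocalin (1.95), were outside the lists.

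Glucose handling held ARRDC4, an alpha-arrestin induced by glucose, at 7.97 on untreated, 10.29 on VPA, 10.75 on GEM and 8.01 on GEM_VPA (2.53). SLC2A3, a glucose transporter, was at 10.20, 12.76, 12.16 and 10.19 (2.27). SLC2A3 has a near-identical copy, so its value may hold both. SLC2A12, another member of the transporter family, was at 1.26, and MLXIPL, the glucose-sensing transcription factor ChREBP, at 1.02. These were the 4 calls among 26 genes, whose median was 0.04, and -0.00458 with each array centred on its own median. TXNIP, another alpha-arrestin induced by glucose, was at 0.04 and lay below the 25th percentile on 3 arrays.

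Targets of AP-1, YAP and SRF had 4 calls among 37 (median 0.26). ANKRD1, a YAP target, was at 7.07, 10.32, 8.57 and 6.91 on untreated, VPA, GEM and GEM_VPA (2.46). ACTA2, smooth muscle actin, was at 9.04, 10.65, 10.60 and 9.02 (1.59), CCN1, a matricellular protein, at 9.66, 11.53, 10.93 and 9.96 (1.42), and JUN, of AP-1, at 9.36, 10.80, 10.65 and 9.58 (1.26). ANKRD1 was far higher on VPA than on GEM, and its difference was 1.58 without the VPA array. ACTBL2, which resembles the other actins closely enough to share probes with them (2.18), and RASGRP3, a Ras activator (2.23), were higher too, but both lay below the 25th percentile on untreated, so their sizes may be understated.

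Matrix genes were called without meeting the limit in every pair. Of 35 genes 4 were higher and 0 in all 4 pairs. The median was 0.11, 0.31 over the 26 genes at level and 0.60 with the level at the 75th percentile. FN1, fibronectin, was at 8.82 on untreated, 11.52 on VPA, 10.90 on GEM and 9.95 on GEM_VPA (1.83). TGM2, transglutaminase, was at 10.90, 13.52, 12.96 and 12.11 (1.74, or 1.13 without the untreated array). In both genes GEM_VPA lay between untreated and the single drug arrays. LAMB3, a laminin chain, was at 1.12 and THBS1, thrombospondin, at 1.01. VIM, vimentin, was at -0.11. Of 35 lysosomal genes 1 was called, LAMP3, a lysosomal membrane protein (1.09), against 3.49% of all genes at level. The list's median was 0.26.

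**Figure D3:**
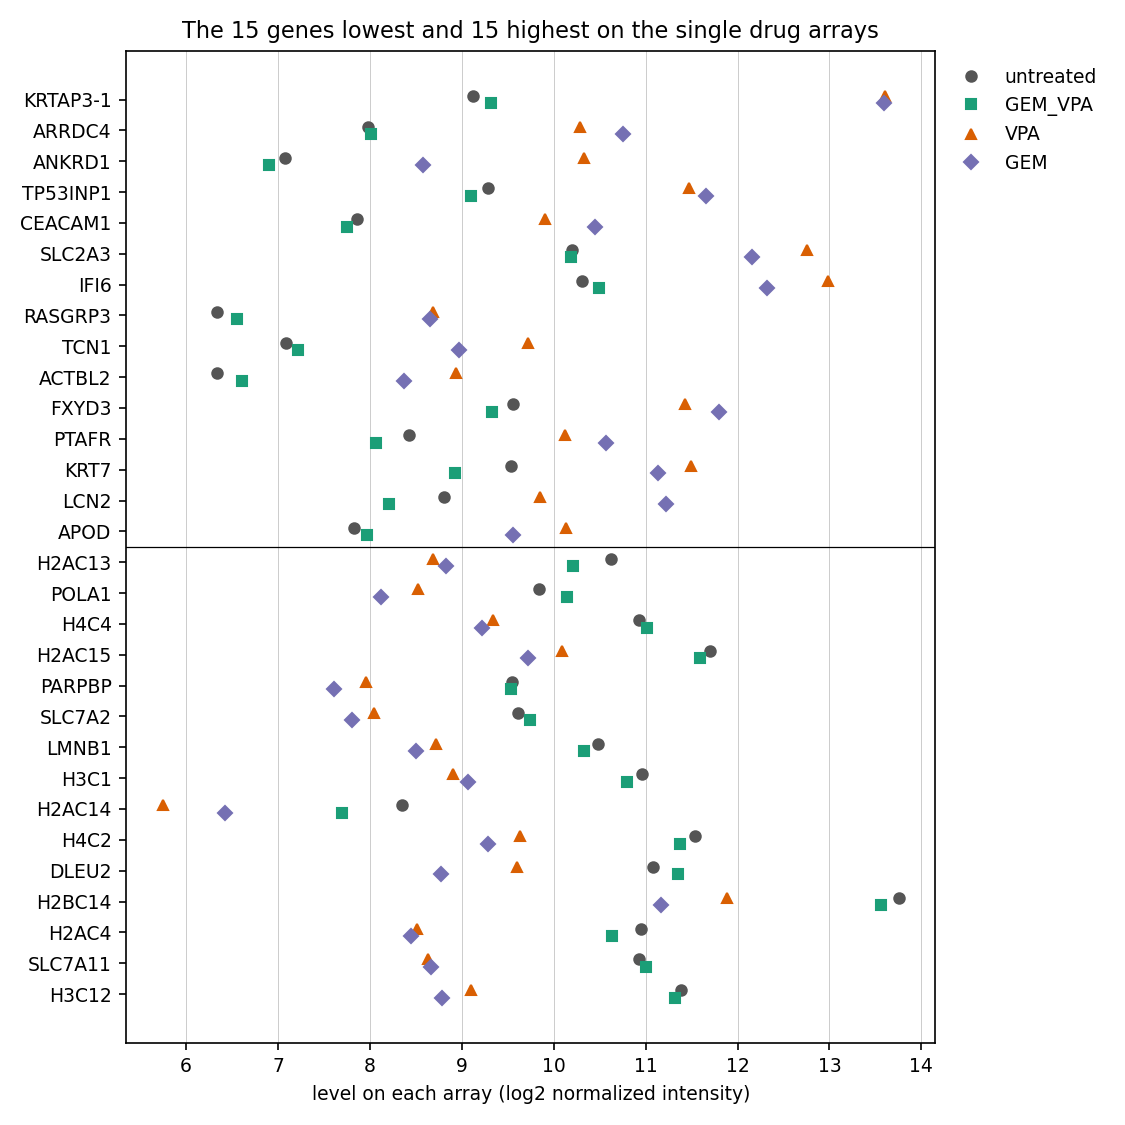
Points give the log2 level on each array for the 15 genes highest and the 15 lowest on the single drug arrays among those 2-fold apart in all 4 array pairs. The rows run from KRTAP3-1 (4.38) at the top to H3C12 (-2.41) at the bottom. In every row the VPA and GEM points lie apart from the untreated and GEM_VPA points, which the choice of genes fixes.

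**Figure D4:**
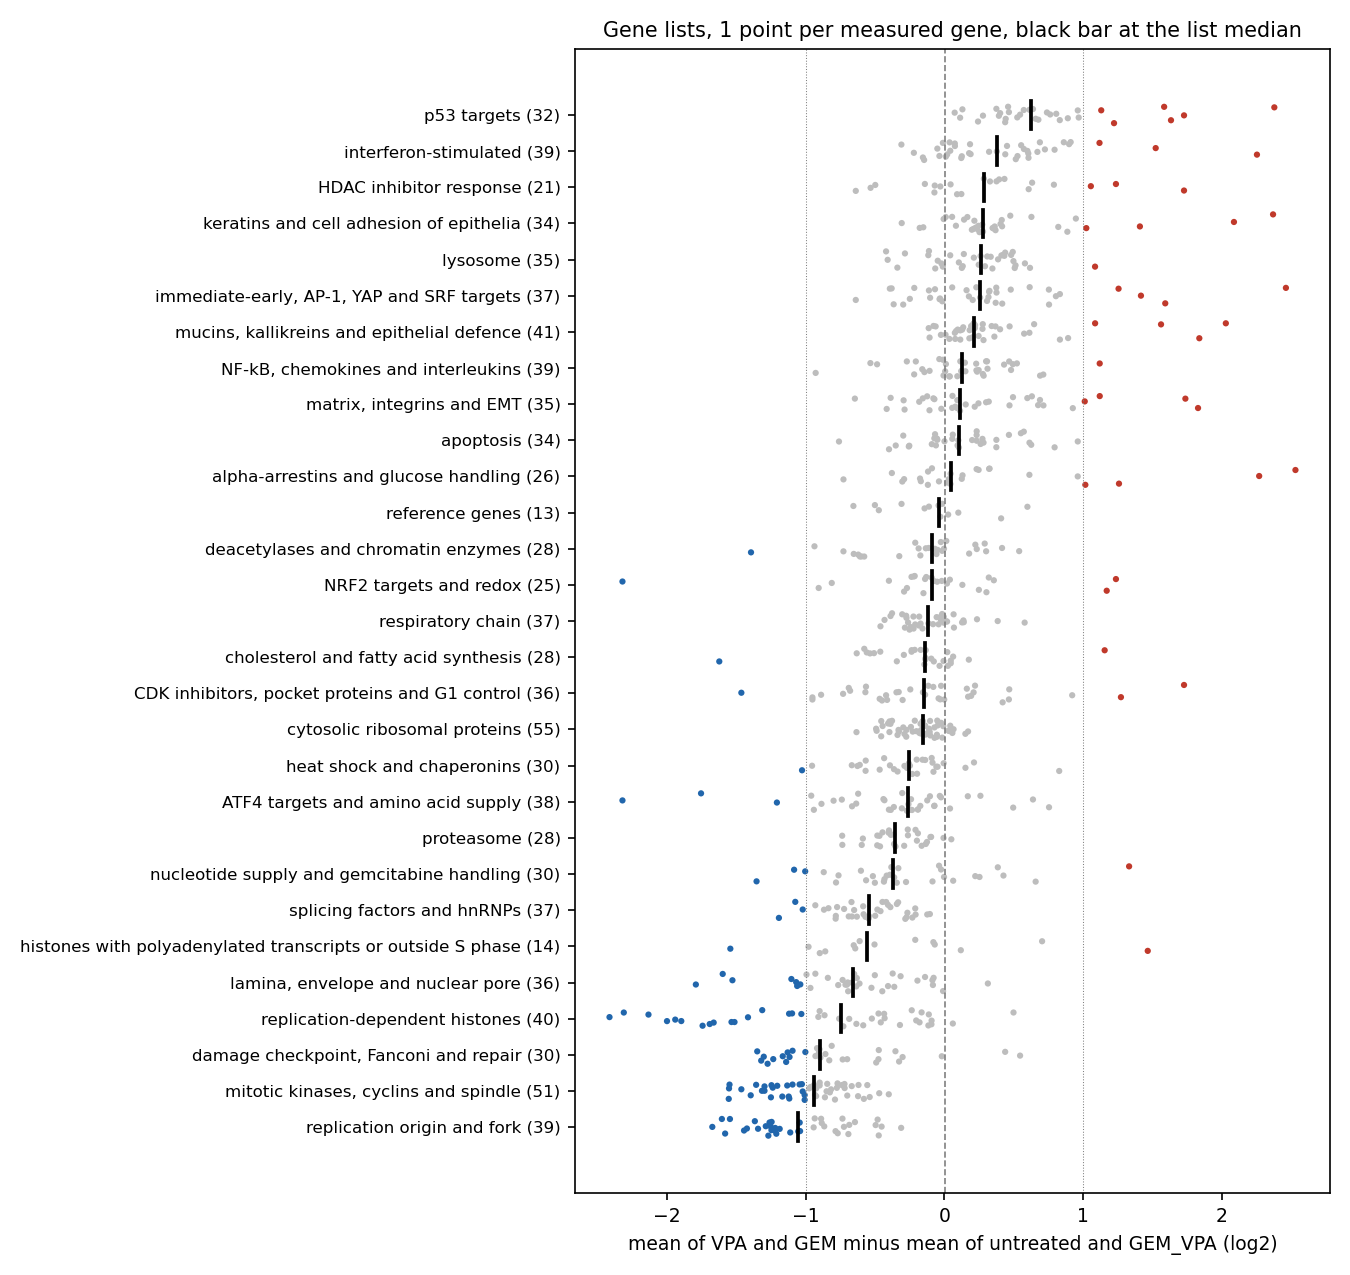
Each point is the log2 difference of 1 measured gene, in rows by list with the number measured, coloured where the gene was called, and the black bar is the list median. Medians run from -1.05 for the replication list to 0.63 for the p53 targets, with all points of the replication and mitotic lists below 0 and all p53 targets above 0.

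The call has no gap at its limit. LINC03129, a long non-coding RNA, and FBXO2, a ubiquitin ligase subunit, were just inside at 1.00, and YPEL3 and CHRNB1, an acetylcholine receptor subunit, just outside, also 1.00 when rounded. In the other direction NT5C3A and FANCG, a Fanconi gene, were just inside and CCDC88A, girdin, and ACTL6A, an actin-related subunit of chromatin remodellers, just outside, all at -1.0 when rounded. With each array centred on its own median MLXIPL, KRT80, THBS1, LINC03129, FBXO2 and UPK2 were no longer called, at 0.95 to 0.97. With the columns quantile normalized again HSPE1 (-0.94), SRSF4 (-0.99), HNRNPR (-0.93), FANCG (-0.96), LINC03129 (0.96) and UPK2 (1.00, just under the limit) were not.

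Leaving out 1 array at a time ended the call of further named genes. Without untreated these were HSPE1 (-0.76), LAMP3 (0.77), LAMB3 (0.87), THBS1 (0.91), NT5C3A (-0.89), FANCG (-0.87), ODAD2, a cilium assembly gene (-0.52), and H2AC14, which was then below the level (-1.62). Without VPA they were IL1RN (0.90), MLXIPL (0.88), HSPE1 (-0.96), KRT80 (0.93), LAMB3 (0.95), NT5C3A (-0.93), LINC03129 (0.85), FBXO2 (0.91) and SELENOP, a selenium carrier (0.57). Without GEM they were AKR1B10 (0.97), LAMP3 (0.87), THBS1 (0.98), FANCG (-0.92), UPK2, a urothelial protein (0.57), ENPP1, a membrane pyrophosphatase (-0.76), ODAD2 (-0.98) and FZD3, a Wnt receptor (-0.74), while SELENOP stood at 1.82. Without GEM_VPA they were MLXIPL (0.90), KRT80 (just under 1), LINC03129 (0.93), ENPP1 (-0.95), SUSD2, a membrane protein (0.77), and FZD3 (-0.58).

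The differences within the sides were not used in calling a gene. VPA exceeded GEM for 47.7% of all genes at level, but for 192 of the 238 genes called lower (80.7%), with a median of 0.22, and for 87 of the 166 called higher (52.4%). It did so for 51 of 51 mitotic genes (median 0.29), 34 of 39 replication genes (0.23) and 24 of 30 repair genes (0.16). GEM was thus the lower of the single drug arrays for those genes. For the p53 targets VPA was above GEM in 6 of 32 genes, with a median of -0.18. These are sizes from 1 array each, and they are small beside the medians of -1.05 to 0.63 across the sides.

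GEM_VPA exceeded untreated for 43.2% of genes at level, for 100 of 238 genes called lower (42.0%) and 83 of 166 called higher. The mitotic list was at a median of -0.04, the replication list at -0.09 and the p53 targets at -0.06. Lysosomal genes were higher on GEM_VPA than on untreated in 28 of 35 genes (median 0.10) and higher on VPA than on GEM in 30 of 35 (0.13). HDAC inhibitor response genes did likewise in 17 and 16 of 21. Ribosomal proteins were lower in both, with 7 and 9 of 55 above 0. Of the called genes, VPA and GEM lay within 0.5 of each other for 125 of 166 higher and 197 of 238 lower genes, and GEM_VPA and untreated for 148 and 223.

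**Figure D5:**
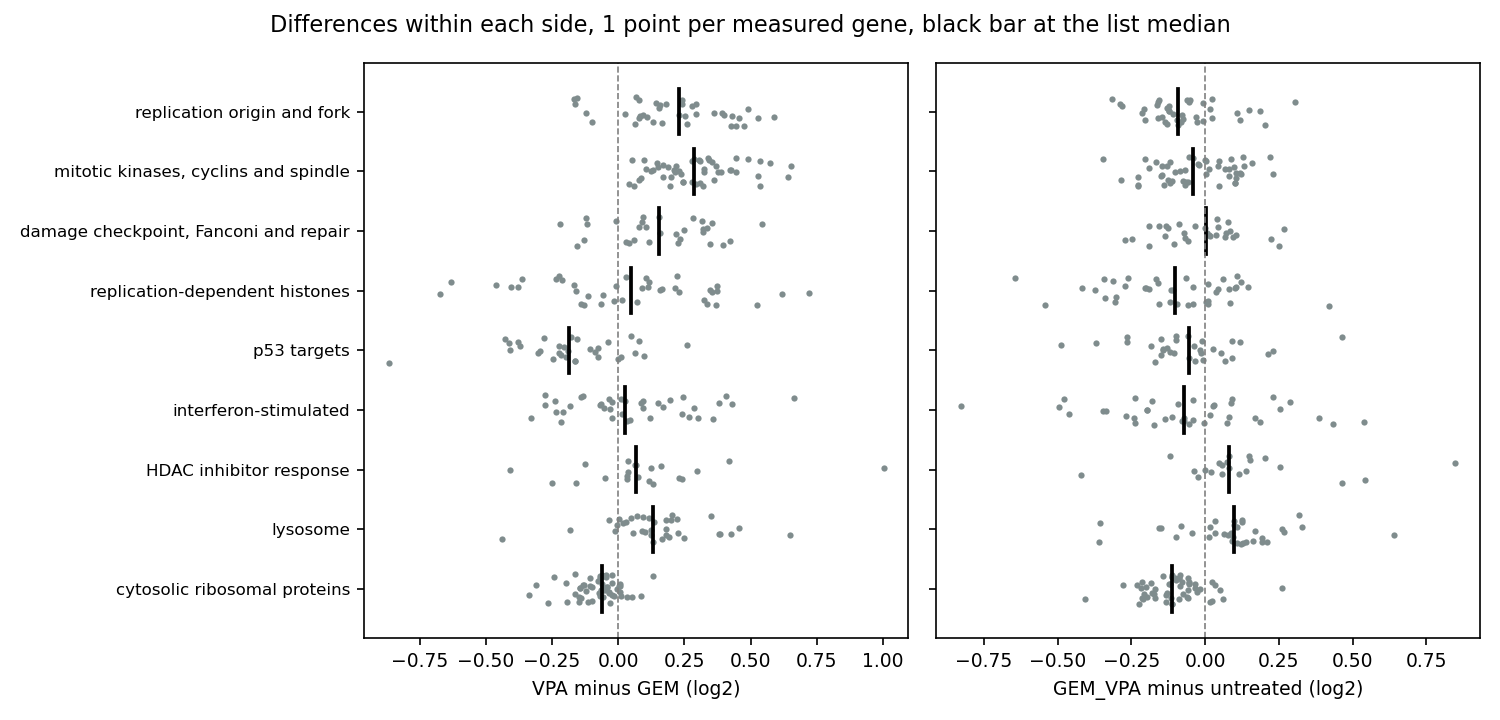
Each point is 1 measured gene, with VPA minus GEM on the left and GEM_VPA minus untreated on the right (log2), for 9 lists, and black bars are list medians. All 51 mitotic genes lie above 0 on the left (median 0.29) and the p53 targets mostly below (median -0.18), while on the right the medians of these lists are -0.04 and -0.06.

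A few called genes departed from the rest of their side. ANKRD1 (1.75), IQGAP2, a scaffold protein (1.46), ENPP1 (1.30) and SELENOP (1.26), had the largest excess of VPA over GEM. LCN2 (-1.36), ABCA12, a lipid transporter (-1.13), UPK2 (-0.90) and TP53I3 (-0.87) had the largest excess of GEM. IQGAP2 was at 7.04 on untreated, 10.70 on VPA, 9.24 on GEM and 8.45 on GEM_VPA, so the array of the combination was 1.42 above untreated and only 0.79 below GEM. TGM2 (1.21), FN1 (1.13) and FZD3 (0.99) were likewise higher on GEM_VPA than on untreated. ODAD2 (-0.97), SUSD2 (-0.94), LYZ (-0.72) and H2AC14 (-0.64) were lower.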

How the data were processed

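Total RNA of HuCCT1 cells was hybridised to 4 Affymetrix Human Gene 1.0 ST arrays, 1 for each condition. The deposited values are on the log2 scale. Per the labels' series text the authors' software was GeneSpring GX 11.5, and the submitters' processing notes name RMA, which equalises the arrays' probe distributions and compresses low values. Scanner files and detection calls were not used here, and the sources used here name no genome build for the rows.

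Of 28869 rows the platform annotation gave exactly 1 symbol to 19310, several to 1752 and none to 7807. The 18377 genes took the mean of their rows, and 99.84% of the named rows matched the RefSeq table by Entrez ID. The difference was the mean of VPA and GEM minus the mean of untreated and GEM_VPA. The call used the authors' ratio limits of 2 and 0.5 and required the higher side mean to reach the median of all rows of that side (7.92 for the single drug side, 7.87 for the other).

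Named genes were the 15 largest in each direction among genes 2-fold apart in all 4 pairs, up to 4 called members of each list, the 2 nearest the limit on each side of it, the 4 called genes with the largest differences within sides in each direction, a fixed set (such as CDA, DCK and CDH1) and cell type markers. The members, lists and motifs were chosen with earlier results of these data known. The restriction to genes with exactly 1 promoter window was chosen after the RefSeq promoter table was seen. No test was made. The counting was checked on simulated data. Alternatives covered centring and quantile normalization of the arrays, the level filter, the fold limit, 1 row per gene and leaving out each array. Software was Python 3.11.15 with numpy 2.4.6, pandas 2.3.3, scipy 1.17.1 and matplotlib 3.10.9.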

Additional observations from a re-analysis of the deposited data

Results flagged for a closer look

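By the labels as given, the same agent went with opposite differences depending on the other agent. The array labelled GEM_VPA correlated most with untreated (0.996) and those labelled VPA and GEM with each other, no measurement used here checks the labels, and both counts below hold only as far as the labels are right. VPA alone against untreated and VPA added to GEM share no array. Of 11580 genes at level, 209 were at least 2-fold apart in both but in opposite directions, against 2 in the same direction. For GEM, alone against untreated and added to VPA, the numbers were 252 and 0. Both splits follow from the array correlations that set the sides, and nothing further is read from them. The difference between these effects was not tested, since each condition is 1 array.

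Rows without exactly 1 gene symbol were left out of the comparison. Of 2750 such rows at level, 99 (3.6%) passed the 2-fold rule, close to the 3.49% of named genes.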

How the results depend on the processing

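No paired analysis was possible because each condition has 1 array and the labels give no replicate numbers. With the level filter at the 75th percentile the count of higher genes was 107. At a limit of 1.5-fold it was 641 and the count of lower genes 1124, with 960 apart in all 4 pairs, and at 3-fold these were 35, 18 and 23. Leaving out 1 array gave 186 to 190 higher and 186 (without GEM) to 365 (without VPA) lower genes. Higher genes made up 41.1% of the calls, 32.6% with each array centred on its median, 48.8% after quantile normalization again, 36.3% at 1.5-fold and 66.0% at 3-fold. Centring kept 376 and quantile normalization 357 of the 404 calls. The share of variation along the axis was 81.8% with centring, 80.6% after quantile normalization and 77.6% without the level filter. Of 261 list medians under alternatives, 161 moved by less than the spread within the sides, 98 moved and 2 reversed, the alpha-arrestin list (-0.00458 with centring) and the NF-kB list (-0.22 at the 75th percentile). Leaving out 1 array moved the median of 8 of 29 lists by over 1.5 times, all with a median of at most 0.28 in size. The cause of these shifts was not tested. Signal near background limits genes below the 25th percentile.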

Other observations

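Small RNAs of the nucleus were measured by a few probes each, and their names follow the annotation. Of 10 genes annotated as non-coding RNA of no other class and at level, the Cajal body RNAs SCARNA7, SCARNA9 and SCARNA17 were higher on the single drug arrays. RPPH1, the RNA of RNase P, which trims tRNA precursors, was higher by 1.06. Of 79 small nucleolar RNAs 0 passed the 2-fold rule, and of 26 microRNA genes 0 did, against 3.49% of all genes at level. Among 150 long non-coding RNAs 4 were higher and 2 lower, near that share. The lower ones were DLEU2 (11.08 on untreated, 9.60 on VPA, 8.77 on GEM and 11.35 on GEM_VPA) and MIR17HG, both hosts of microRNAs. These genes were named after their values were seen, except DLEU2 and LINC03129.

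The genes called lower were not spread evenly over expression level. In 4 bins of 2895 genes each by mean level, from lowest to highest, 39, 64, 89 and 46 were lower and 47, 43, 45 and 31 higher.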
